A study of Homo sapiens with 18 samples.

Results

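The Wnt ligands, receptors and feedback genes comprised 53 of the 62 human symbols of this family, out of 21944 genes in the deposited table. They were taken by symbol, as all WNT and FZD genes, the co-receptors *LRP5*, *LRP6*, *ROR1*, *ROR2* and *RYK*, the DKK, SFRP and R-spondin families, *NOTUM*, *LGR4* to *LGR6*, *AXIN1*, *AXIN2*, *ZNRF3*, *NKD1*, *NKD2* and the 4 TCF/LEF factors. The remaining 9 symbols, *WNT1*, *WNT7A*, *WNT8A*, *WNT9B*, *WNT10A*, *RSPO1*, *RNF43*, *WIF1* and *SFRP3*, had no values under these names. *SFRP3* is listed as *FRZB*, which the symbol rule does not take and which is described with the other pathway genes, and the other 8 were not analysed here. At 3 h 49 of them had values, at 6 h 51, at 24 h 46, and at every time 45.

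Pancreatic progenitors derived from human embryonic stem cells were dissociated with accutase at day 19 and reseeded in coated wells, on the laminin isoform laminin-411 (LN411) or on fibronectin (FN), and collected after 3, 6 or 24 h. Poly(A) RNA was sequenced from 3 samples in each of the 6 groups, 18 in all, so that LN411 and FN samples shared the dissociation, the day and the time since reseeding. The question was how gene expression changes between contact with LN411 and the choice of an endocrine fate. The labels name the cell line HUES4, whereas their growth protocol names NGN3-GFP cells derived from the line SA121. This is a reporter line for the endocrine regulator *NEUROG3*. The paper also gives NGN3-GFP-derived progenitors for this sequencing. Cells from 1 line cannot show how far an effect extends to other lines. No untreated or non-reseeded cells were compared here.

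Wnt proteins are lipid-modified secreted ligands that bind Frizzled (FZD) receptors. With the co-receptors LRP5 or LRP6 they stabilise β-catenin, which acts with TCF/LEF factors on target genes, and with ROR1, ROR2 or RYK they act on cell shape and polarity without β-catenin. Secreted antagonists of the DKK and SFRP families block these steps, R-spondins strengthen them through LGR receptors, and *AXIN2*, *NKD1* and *ZNRF3* are target genes that dampen the pathway, which in the embryonic pancreas is known for its part in patterning and in progenitor growth.

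Promoters are shown for the genes with the smallest p-values among those higher and lower on LN411 at 24 h, *WNT8B* and *FZD5*, and for *DKK1*, which was chosen after its match was seen. Each runs 5′ to 3′ from 250 bases before to 50 bases after the RefSeq start (GRCh38.p14). Capitals mark the letters CTTTGAT or CTTTGAA, the core word of TCF/LEF factors, and GGAATG, that of TEAD factors, searched on both strands. These words were looked for because β-catenin acts through TCF/LEF factors and the transcriptional coactivator YAP through TEAD factors.
*WNT8B*, chr10:100462759-100463058, plus strand: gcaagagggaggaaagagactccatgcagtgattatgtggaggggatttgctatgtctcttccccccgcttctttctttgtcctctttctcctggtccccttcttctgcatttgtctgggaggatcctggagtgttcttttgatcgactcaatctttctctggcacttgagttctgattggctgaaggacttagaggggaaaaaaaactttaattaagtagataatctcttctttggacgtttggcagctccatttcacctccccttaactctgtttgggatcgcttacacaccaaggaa
*FZD5*, chr2:207769857-207770156, minus strand: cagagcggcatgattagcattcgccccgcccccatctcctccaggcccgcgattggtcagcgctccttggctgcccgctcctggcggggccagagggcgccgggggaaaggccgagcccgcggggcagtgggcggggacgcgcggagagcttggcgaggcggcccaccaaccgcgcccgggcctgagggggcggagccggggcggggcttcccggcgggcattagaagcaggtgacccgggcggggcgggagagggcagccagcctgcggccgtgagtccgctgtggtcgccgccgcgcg
*DKK1*, chr10:52314031-52314330, plus strand: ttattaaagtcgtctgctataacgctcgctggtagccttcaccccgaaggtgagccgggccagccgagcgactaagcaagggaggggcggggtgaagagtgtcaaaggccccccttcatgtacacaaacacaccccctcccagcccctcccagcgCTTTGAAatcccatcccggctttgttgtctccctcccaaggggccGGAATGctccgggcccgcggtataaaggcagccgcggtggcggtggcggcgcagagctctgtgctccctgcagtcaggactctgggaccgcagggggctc

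The *FZD5* promoter was 77% G and C with 38 CpG dinucleotides, against 45.7% and 4 for *WNT8B* and 63.7% and 20 for *DKK1*. RefSeq promoters were found for 34 of the 53 genes. A TCF/LEF word stood in 1 of these 34 (*DKK1*), beside 6.86% of all 35116 promoters, and a TEAD word in 2 of 34 (*DKK1* and *WNT16*), beside 14.0%. Both *DKK1* words lie on the gene's own strand and do not overlap. None of the 12 promoters of genes called higher at 24 h held either word. A match is a description of these 300 bases only.

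The progenitors carried RNA for all 6 roles, with receptors and secreted antagonists at the highest levels. Of the summed mean normalized counts of the 53 genes, receptors and co-receptors held 44.7%, secreted antagonists 32.7%, R-spondins and LGR receptors 12.7%, TCF/LEF factors 4.83%, ligands 2.64% and feedback inhibitors 2.43%. Mean normalized counts are counts scaled by the size factor of each sample and averaged over samples, and ranged from 5.38 for *WNT3A* to 24412 for *SFRP5*, with 22 genes at 1000 or more and 17 under 100. Set against exonic length, *SFRP5* had the highest level of the 53 genes at 12965 counts per 1000 bases, above 99.6% of the genes in the table. It was followed by *FZD5* (3141), *LGR4* (2845), *SFRP1* (1839), *LRP5* (1174), *FZD7* (1156) and *DKK2* (1099). Among ligands *WNT8B* (334) and *WNT5A* (287) stood highest, and the next, *WNT4*, had 59.4. The spread of these levels over samples was not available, so neighbours in the order cannot be told apart. The plot of levels by role shows this order.

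**Figure D1:**
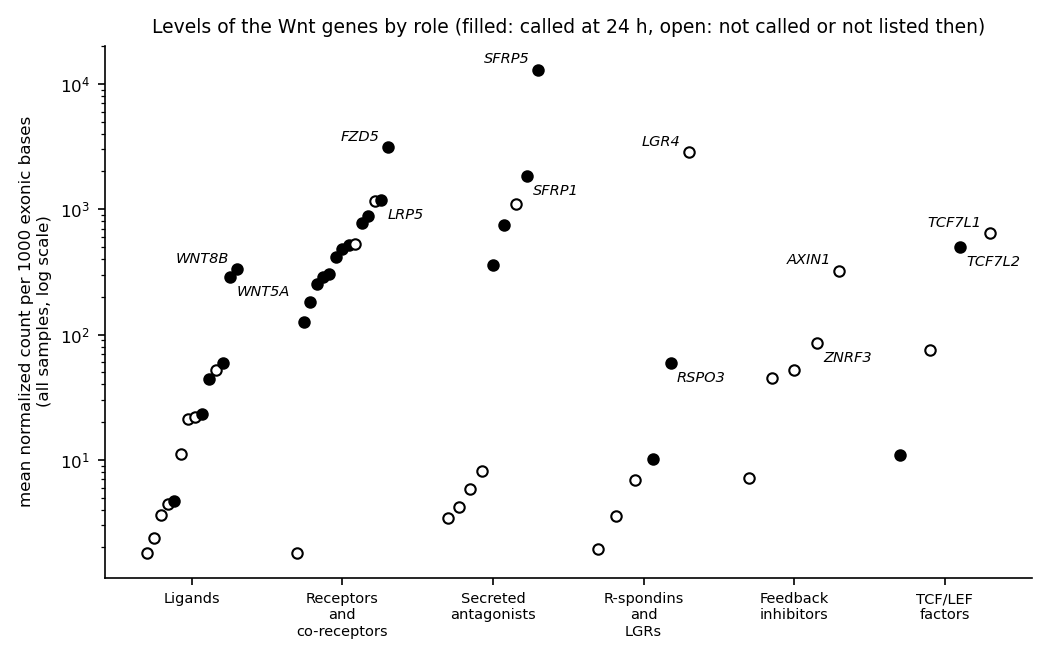
Mean normalized count per 1000 exonic bases (log scale) of each of the 53 Wnt genes, grouped by role, with filled points for genes called at 24 h and open points for the others. The 2 highest genes of each role are named, and *SFRP5* stands above all others at 12965.

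Progenitor identity was checked with fixed markers. All 10 pancreatic progenitor markers were listed, *GP2* with a mean normalized count of 135959 and *PTF1A* with 12.5. At 24 h 3 of them were higher on LN411, *GP2* (log2 fold change 0.90), *PDX1* (0.60) and *GATA4* (0.52), and none was lower. The pluripotency genes *POU5F1* and *NANOG* were not listed, while the pluripotency-associated *LIN28A* stood at 10333 and was lower on LN411 at 24 h (log2 fold change -0.75). Markers of other cells moved at the same time. At 24 h 7 of 10 endocrine markers were higher on LN411 and none lower, *NEUROG3* by 2.54 on the log2 scale, and their mean counts reached 4312 (*CHGA*). Of 8 mesenchymal markers listed at 24 h, *COL1A2* (45110 counts, log2 fold change 0.27) and *PDGFRA* (0.49) were higher and *PDGFRB* was lower (-0.66). The 3 endothelial markers listed had at most 75.0 counts and the 3 Schwann cell and neural crest markers listed at most 184, and none of these was called. The intestinal marker *CDX2* (0.91) and the liver marker *AFP* (0.40) were also higher. The part of these cell types in the Wnt results was not tested. In bulk samples fewer cells of a type and less RNA per cell cannot be told apart.

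Few Wnt genes differed between the matrices at 3 and 6 h, and most of those tested did at 24 h. A gene was called when its Benjamini-Hochberg adjusted p from the two-sided Wald test was under 0.05, and each effect is the log2 fold change of LN411 over FN with its standard error (SE) from the fit of 3 samples per group. At 3 h 1 of 43 tested genes was called, lower on LN411, beside 0.383% of all tested genes (0.183% higher and 0.2% lower). At 6 h 5 of 35 were called, 2 higher and 3 lower, beside 8.23% of all (4.9% higher and 3.33% lower). With trends of the fold change with GC content and gene length removed, the Wnt split at 6 h became 1 higher and 3 lower, and the share of higher genes among all called genes at 3 h went from 47.8% to 36.4%. At 24 h 26 of 46 were called, 56.5%, beside 29.5% of all tested genes, with 16 higher (16.7% of all genes) and 10 lower (12.8% of all genes). Of the 26, 6 higher and 5 lower genes changed by 0.5 or more on the log2 scale.

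Part of this share went with level. Among genes with at least 1000 mean normalized counts, 16 of 22 Wnt genes (72.7%) were called at 24 h, beside 43.9% of all genes at that level, and 10 of 24 Wnt genes below it, beside 19.6% of all genes there. The median log2 fold change of the tested Wnt genes was 0.02 at 24 h, beside 0.01 for all genes, whereas the median absolute value was 0.31 beside 0.17. The changes were therefore spread over both directions. In total 27 of the 53 genes were called at some time and 26 at none. The 4 called at both 6 and 24 h kept their direction, and 22 were called at 24 h but not earlier. Of these 22, *WNT5B*, *WNT10B*, *LEF1* and *RSPO4* were not tested at 6 h, and *WNT10B* was not tested at 3 h either. Over all tested genes 0.383% were called at 3 h, 8.23% at 6 h and 29.5% at 24 h. How many of all genes were called at both times, or at 24 h only, was not counted, so these overlaps have no background beside them. Values per sample were not analysed here, so it cannot be said whether the samples of both matrices overlap, and the depth of the libraries is unknown.

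**Figure D2:**
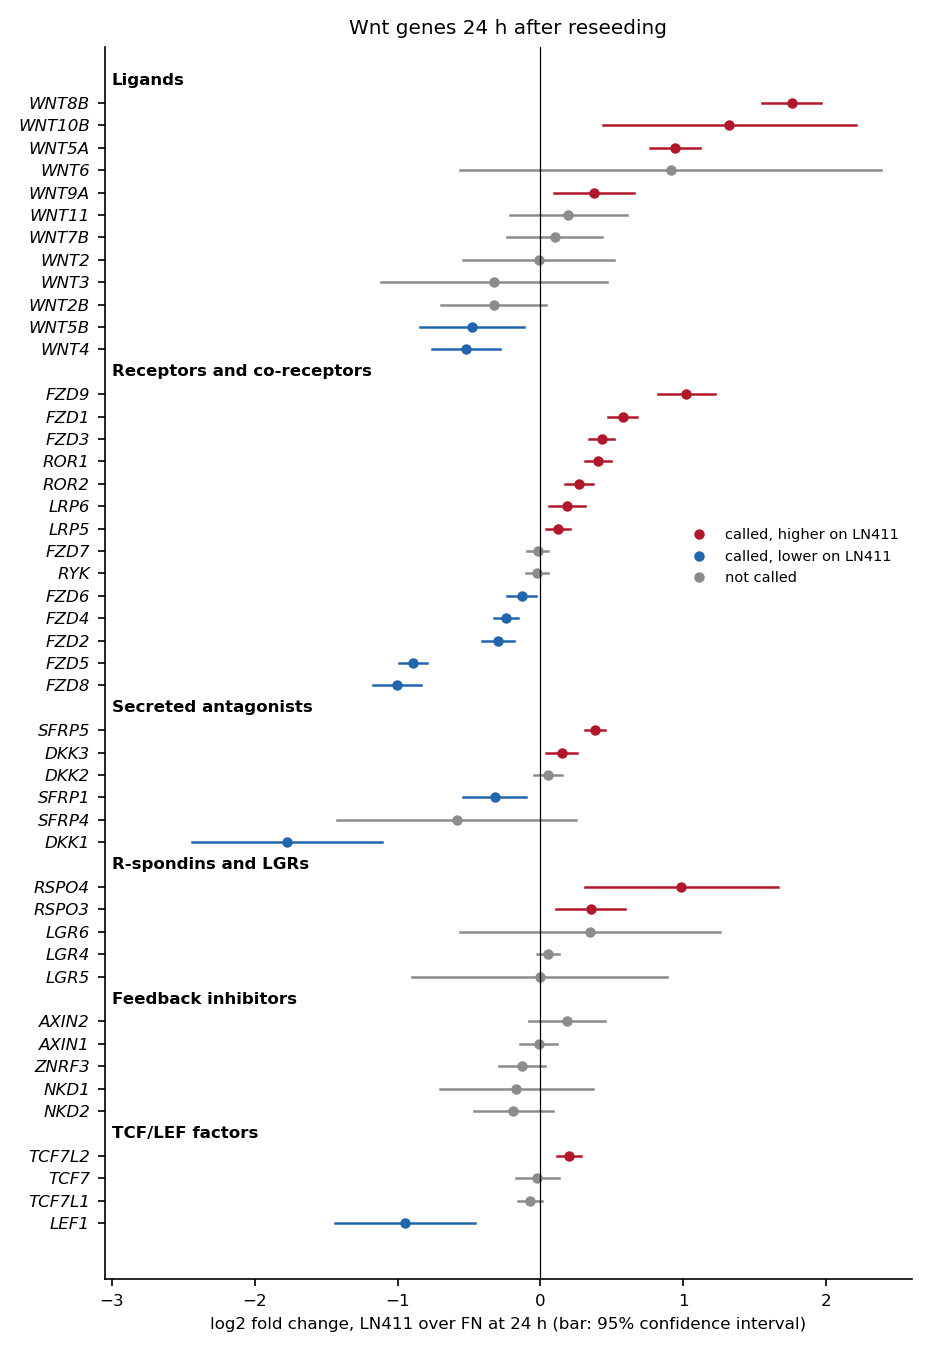
Log2 fold change of LN411 over FN at 24 h for the 46 Wnt genes listed at that time, by role, with bars for the 95% confidence interval. Red marks the 16 genes called higher on LN411, blue the 10 called lower, and gray those not called, which include all 5 feedback inhibitors. Over all tested genes 29.5% were called at 24 h.

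Among the ligands, 4 of 12 tested were higher on LN411 at 24 h and 2 were lower, beside 16.7% and 12.8% of all tested genes. None of 10 tested at 3 h or of 6 tested at 6 h was called by the Wald test. Of all tested genes 0.383% and 8.23% were called then. Among ligands 0 and 1 had an unadjusted p under 0.05 at these times. Rarer ligands were not tested at 6 h, where the lowest mean normalized count tested was 108. *WNT8B*, a ligand of the β-catenin branch best known from the developing forebrain, was the most changed, 3.39-fold higher. Its gene (ENSG00000075290) lies at chr10:100463009-100483744 on the plus strand. Its log2 fold change was 0.05 (SE 0.098) at 3 h, 0.18 (SE 0.099) at 6 h and 1.76 (SE 0.11) at 24 h, where the 95% confidence interval ran from 1.55 to 1.97 and the adjusted p was 6.35e-60. *WNT5A* (ENSG00000114251, chr3:55465715-55490539, minus strand), which acts mostly without β-catenin, had -0.01 at 3 h, 0.14 at 6 h and 0.94 (SE 0.089) at 24 h, 1.92-fold higher (adjusted p = 1.44e-24). These were also the most abundant ligands.

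The other called ligands were rarer. *WNT10B*, a β-catenin ligand with only 12.2 mean normalized counts, had -0.14 at 3 h, was not listed at 6 h, and had 1.32 (SE 0.45) at 24 h (adjusted p = 0.0147). *WNT9A* had 0.12, 0.14 and 0.37 (SE 0.14) at 3, 6 and 24 h (adjusted p at 24 h = 0.0334). In the other direction *WNT4*, a ligand of kidney and gonad development, had 0.00 and 0.10 at 3 and 6 h and fell by 0.52 (SE 0.12) at 24 h, to 0.697 times its level on FN (adjusted p = 1.31e-04). *WNT5B*, the close relative of *WNT5A*, had 0.20, -0.26 and -0.48 (SE 0.19), so that the pair moved in opposite directions at 24 h (adjusted p for *WNT5B* = 0.0357). The calls of *WNT5B*, *WNT9A* and *WNT10B* were lost at an adjusted p under 0.01 and with a t distribution. *WNT5B* overlaps *FBXL14* on the other strand over 28589 bases, and whether counting used the strand is not given in the sources used here.

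The remaining 8 ligands were not called at any time. *WNT2*, *WNT2B*, *WNT3*, *WNT6*, *WNT7B* and *WNT11* were tested at 24 h, with log2 fold changes from -0.33 to 0.91, and *WNT3A* and *WNT16* were not listed then. *WNT2B* alone among them had an unadjusted p under 0.05, at 6 h, with -0.36 (SE 0.18, adjusted p = 0.23). Their mean normalized counts reached 139 at most, and their intervals were wide, for *WNT6* from -0.56 to 2.39.

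Receptors and co-receptors had the highest share of genes called at 24 h, 12 of 14 tested, with 7 higher and 5 lower. Over all tested genes 16.7% were higher and 12.8% lower. Of these 14 only *FZD9*, with 425 mean normalized counts, lay under 1000, and 43.9% of all genes at 1000 or more were called. A difference between roles was not tested. The changes of receptors and co-receptors were not the largest. Their median absolute log2 fold change was 0.29 beside 0.43 for ligands, whose median SE was wider (0.19 against 0.05). The paralogs *FZD5* and *FZD8* fell together. *FZD5* (ENSG00000163251, chr2:207762598-207769906, minus strand), the receptor at the highest level with 22109 mean normalized counts, had -0.13 (SE 0.05) at 3 h (adjusted p = 0.49), -0.38 (SE 0.05) at 6 h (adjusted p = 8.96e-12) and -0.89 (SE 0.05) at 24 h (adjusted p = 7.72e-70). At 24 h its level on LN411 was 0.539 times that on FN. *FZD8* (chr10:35638247-35642296, minus strand) had -0.10, -0.18 and -1.0 (SE 0.086), to 0.499 times its level on FN at 24 h (adjusted p = 2.07e-29). It overlaps a long non-coding gene on the other strand over 1200 bases.

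*FZD9* and *FZD1* were the Frizzled genes with the largest rise. *FZD9* (chr7:73433778-73436120, plus strand) had 0.15, 0.25 and 1.02 (SE 0.10) at 3, 6 and 24 h, 2.03-fold higher at the last time (adjusted p = 4.27e-22). *FZD1* (chr7:91264433-91271326, plus strand) had 0.08 at 3 h, 0.21 (SE 0.049) at 6 h (adjusted p = 6.01e-04) and 0.58 (SE 0.053) at 24 h (adjusted p = 5.42e-26), so that it was already called at 6 h. *FZD1*, *FZD2* and *FZD7* form one subfamily by sequence, and their effects at 24 h had no common direction. *FZD2* had -0.02, 0.03 and -0.30 (SE 0.058), with an adjusted p of 2.62e-06 at 24 h.

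*FZD7* was the single Wnt gene called at 3 h, and was no longer called at 24 h. It lies at chr2:202033855-202038441 on the plus strand (ENSG00000155760) and had 5302 mean normalized counts. Its log2 fold change was -0.25 (SE 0.036) at 3 h, 0.844 times its level on FN (adjusted p = 2.48e-08), and -0.29 (SE 0.037) at 6 h, 0.82 times that level (adjusted p = 2.13e-12). At 24 h it had -0.02 (SE 0.038), with a 95% confidence interval from -0.09 to 0.05 (adjusted p = 0.761).

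Of the other Frizzled genes, 3 were called, each at 24 h and at neither earlier time. Over all tested genes 0.383% were called at 3 h, 8.23% at 6 h and 29.5% at 24 h. *FZD3*, a receptor of the planar polarity branch, had 0.07, 0.05 and 0.43 (SE 0.044, adjusted p = 6.59e-21). *FZD6*, its closest relative, had 0.00, -0.03 and -0.13 (SE 0.052, adjusted p = 0.0421), in the other direction. That call of *FZD6* was lost at an adjusted p under 0.01 and with a t distribution. *FZD4* had -0.02, 0.07 and -0.24 (SE 0.043, adjusted p = 2.71e-07), and 7232 bases of it overlap *PRSS23* on the other strand. *FZD10*, with 5.88 mean normalized counts, was listed at 6 h only and was too rare to be tested.

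All 4 called co-receptors were higher on LN411 at 24 h. Over all tested genes 16.7% were higher and 12.8% lower, and 43.9% of those with at least 1000 mean normalized counts were called. *ROR1* and *ROR2*, the receptor tyrosine kinase-like partners of *WNT5A*, had -0.02, 0.05 and 0.40 (SE 0.047, adjusted p = 2.64e-16) and 0.05, 0.14 and 0.27 (SE 0.05, adjusted p = 7.18e-07). The β-catenin co-receptors changed less, *LRP6* with 0.10, 0.00 and 0.19 (SE 0.064, adjusted p = 0.0139) and *LRP5* with 0.05, 0.03 and 0.12 (SE 0.043, adjusted p = 0.0197). The calls of *LRP5* and *LRP6* were lost at an adjusted p under 0.01 and with a t distribution. *RYK* was not called, with -0.04, -0.03 and -0.02 (SE 0.039) and an interval at 24 h from -0.10 to 0.05.

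Among the secreted antagonists 2 of 6 tested at 24 h were higher on LN411 and 2 were lower, beside 16.7% and 12.8% of all tested genes. *SFRP5*, which binds Wnt ligands and was the most abundant of the 53 genes, was higher. It lies at chr10:97766751-97771999 on the minus strand (ENSG00000120057) and had 0.04 at 3 h, 0.14 (SE 0.035) at 6 h (adjusted p = 0.003) and 0.38 (SE 0.035) at 24 h, 1.3-fold higher (adjusted p = 2.73e-25). *SFRP1*, of the same family, had -0.01, -0.04 and -0.32 (SE 0.11, adjusted p = 0.019). Its SE at 24 h was above that of 98.4% of genes at a like level, whose median SE was 0.043. The *SFRP1* call was lost at an adjusted p under 0.01 and with a t distribution. The 6 h call of *SFRP5* was lost when trends with GC content and gene length were removed.

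*DKK1*, which blocks LRP5 and LRP6 and is itself a Wnt target gene, was lowered most of all Wnt genes. Its gene (ENSG00000107984) lies at chr10:52314281-52318042 on the plus strand, and it had 798 mean normalized counts. It had -0.71 (SE 0.33) at 3 h (adjusted p = 0.859), -1.01 (SE 0.33) at 6 h (adjusted p = 0.033) and -1.77 (SE 0.34) at 24 h, 0.293 times its level on FN (adjusted p = 1.65e-06). Its error was unusual, since the SE at 24 h was above that of 99.96% of genes at a like level, whose median SE was 0.072, and the 95% confidence interval ran from -2.43 to -1.11. The 6 h call was lost without independent filtering. *DKK3*, a divergent member of the family, had 0.04, 0.05 and 0.15 (SE 0.057, adjusted p = 0.0344), and *DKK2* was not called, with -0.01, -0.04 and 0.05 (SE 0.05) and an interval at 24 h from -0.05 to 0.15. *DKK3* overlaps *USP47* on the other strand over 5681 bases. *SFRP4* (14.7 mean normalized counts) was not called, and *SFRP2*, *DKK4* and *NOTUM*, all at 17.2 counts or less, were not listed at 24 h.

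Both R-spondins tested at 24 h were called higher, calls that were lost at an adjusted p under 0.01 and with a t distribution. None of the 3 LGR receptors was called. Over all tested genes 16.7% were higher and 12.8% lower at 24 h. A difference between R-spondins and LGR receptors was not tested. *RSPO3* had 0.23, 0.00 and 0.35 (SE 0.12, adjusted p = 0.0176) at 3, 6 and 24 h, and *RSPO4*, with only 28.2 mean normalized counts, had -0.22, 0.21 and 0.98 (SE 0.35, adjusted p = 0.0178). *RSPO3* lies within a transcribed pseudogene on the other strand. *LGR4*, the LGR receptor with the highest level and 18079 mean normalized counts, had 0.01, 0.05 and 0.05 (SE 0.04), and its interval at 24 h ran from -0.03 to 0.13. *LGR5* and *LGR6*, markers of stem cells in other epithelia, had -0.01 (SE 0.46) and 0.35 (SE 0.46) at 24 h, at 35.9 and 16.6 counts, and *RSPO2* was listed at 6 h only.

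None of the 5 feedback inhibitors was called at any time by the Wald test, and a single value, that of *NKD2* at 3 h, had an unadjusted p under 0.05. Over all tested genes 0.383% were called at 3 h, 8.23% at 6 h and 29.5% at 24 h. All 5 but *AXIN1* had under 1000 mean normalized counts, where 19.6% of all genes were called at 24 h. With so few genes, 0 of 5 does not set them apart from that share. *AXIN2*, the usual readout of β-catenin activity, had 0.00, 0.24 (SE 0.14) and 0.19 (SE 0.13) at 3, 6 and 24 h, with an interval at 24 h from -0.08 to 0.45 (adjusted p = 0.323). In the annotation used here another gene overlaps it on the same strand over 23547 bases. *AXIN1*, a scaffold of the β-catenin destruction complex, had 0.00, 0.08 and -0.01 (SE 0.067). *NKD2*, which binds Dishevelled, had 0.28 (SE 0.13) at 3 h (adjusted p = 0.871), 0.16 at 6 h and -0.19 at 24 h. At 24 h *NKD1* had -0.17 (SE 0.27) and *ZNRF3*, a ubiquitin ligase that removes Frizzled receptors, had -0.13 (SE 0.083). With 234 mean normalized counts for *AXIN2* these intervals still hold changes the size of those called in other Wnt genes.

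The TCF/LEF factors moved apart at 24 h. *TCF7L2*, a main partner of β-catenin in epithelia, had -0.14 (SE 0.044) at 3 h (adjusted p = 0.176), 0.03 at 6 h and 0.20 (SE 0.043) at 24 h (adjusted p = 3.98e-05). *LEF1*, itself a Wnt target gene and present at only 58.9 mean normalized counts, had 0.09 and 0.27 and then -0.95 (SE 0.25) at 24 h, 0.518 times its level on FN (adjusted p = 9.35e-04). *TCF7L1*, mostly a repressor, had -0.04, 0.06 and -0.08 (SE 0.043, adjusted p at 24 h = 0.182), and *TCF7* had 0.03, 0.07 and -0.02 (SE 0.076). Neither was called. *LEF1* overlaps its antisense gene *LEF1-AS1* over 1432 bases.

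The effect of LN411 on the Wnt genes changed after 6 h. Effects were compared by the two-sided z test of the difference between log2 fold changes, with Benjamini-Hochberg adjustment across every gene listed at the pair of times. From 3 to 6 h none of 47 Wnt genes differed by this test, beside 0.257% of all genes. At an unadjusted p under 0.05 there were 2, *FZD5* (difference -0.25, adjusted p = 0.144) and *TCF7L2* (0.17, adjusted p = 0.499). From 6 to 24 h 14 of 45 differed, 8 upward and 6 downward, beside 12.8% of all genes, and from 3 to 24 h 17 of 46, 10 upward and 7 downward, beside 17% of all genes. Both sets of differences use the same 24 h samples.

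The largest upward difference from 6 to 24 h was that of *WNT8B*, 1.58 (95% confidence interval 1.29 to 1.86, adjusted p = 2.84e-25). It was followed by *WNT5A* with 0.80 (0.56 to 1.04, adjusted p = 6.49e-09) and *FZD9* with 0.77 (0.49 to 1.05, adjusted p = 1.43e-06). Downward, *LEF1* had -1.22 (-1.89 to -0.54, adjusted p = 0.00515), *FZD8* had -0.82 (-1.06 to -0.58, adjusted p = 1.11e-09), *WNT4* had -0.62 (-0.94 to -0.30, adjusted p = 0.00263) and *FZD5* had -0.51 (-0.65 to -0.37, adjusted p = 2.43e-11). *FZD7* differed upward by 0.27 (0.16 to 0.37, adjusted p = 1.33e-05), from an effect called at 6 h to one not called at 24 h. The course of *DKK1* is steep in the plot through time, but its differences were not called.

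**Figure D3:**
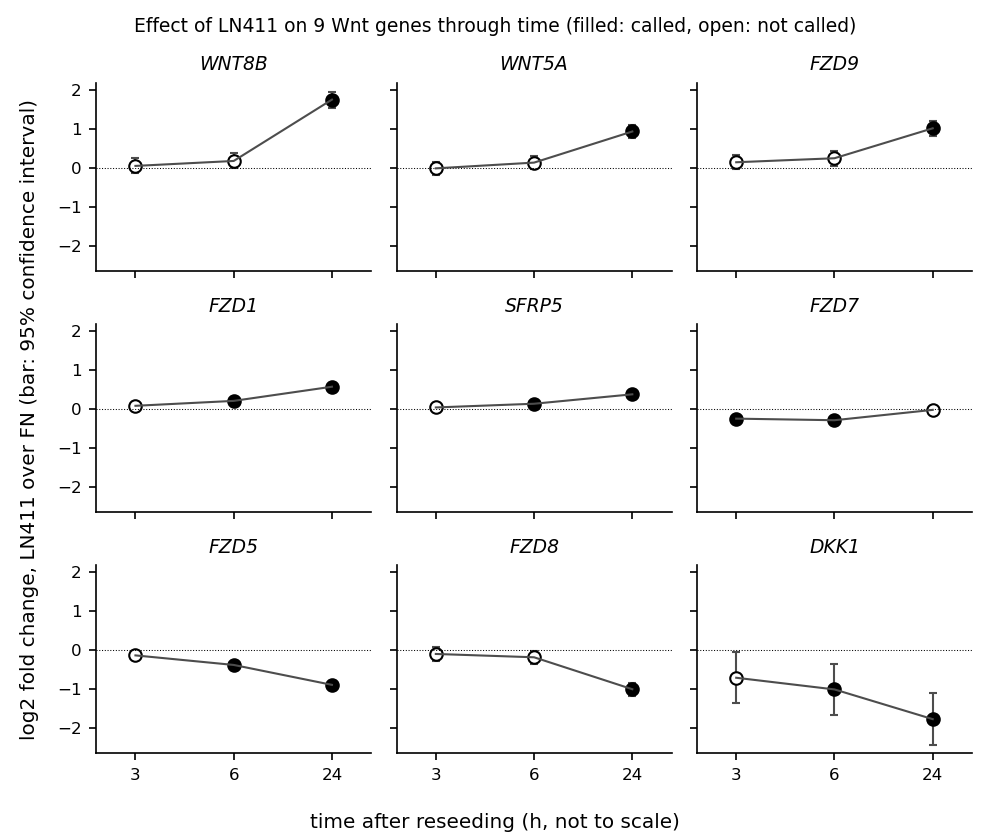
Log2 fold change of LN411 over FN at 3, 6 and 24 h for 9 Wnt genes, with bars for the 95% confidence interval, filled points where the gene was called and open points where it was not. *WNT8B* stays near 0 until 6 h and reaches 1.76 at 24 h, *FZD5* goes from -0.13 at 3 h to -0.89, *DKK1* from -0.71 to -1.77, and *FZD7* from -0.25 to -0.02.

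Other genes of the pathway were called at 24 h in both directions. Of 69 genes on a list of secretion factors, modulators, transducers, cofactors, planar polarity genes and targets, 0 of 64 tested were called at 3 h by the Wald test (6 had an unadjusted p under 0.05), 3 of 58 at 6 h (2 higher and 1 lower) and 29 of 65 at 24 h (13 higher and 16 lower). Over all tested genes 8.23% were called at 6 h and 29.5% at 24 h. The list's share at 24 h, 44.6%, lies near the 43.9% of all genes with at least 1000 mean normalized counts, and the median count of the list was 3110. *FRZB* (*SFRP3*), named after its values were seen, exceeded *SFRP5* in level with 56514 mean normalized counts and 21431 per 1000 exonic bases, and had 0.02, 0.04 and 0.00 (SE 0.072) at 3, 6 and 24 h, not called. For ligand export, *PORCN*, which attaches the lipid to Wnt proteins, was higher at 24 h (log2 fold change 0.35, SE 0.081, adjusted p = 1.56e-04), and *WLS*, which carries them to the surface, was lower (-0.14, SE 0.036, adjusted p = 9.67e-04). Of 20 cytoplasmic transducers 7 were called at 24 h, 4 higher and 3 lower, with absolute log2 fold changes under 0.5. Not called were 3 central genes of the β-catenin branch, with 0.07 (SE 0.032, adjusted p = 0.102) for *CTNNB1*, which encodes β-catenin, -0.09 (SE 0.052, adjusted p = 0.185) for *APC* and -0.01 (SE 0.047, adjusted p = 0.927) for *GSK3B*.

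Of 10 planar polarity genes 7 were called at 24 h, 2 higher and 5 lower, beside the 29.5% of all genes and the 43.9% of those with at least 1000 mean normalized counts. *PRICKLE1* and *PRICKLE2*, cytoplasmic components of that system, were lower, with -0.88 (SE 0.11) and -1.03 (SE 0.12) on the log2 scale. *TRABD2A*, a membrane protease that inactivates Wnt proteins, was higher by 1.39 (SE 0.24) at 56.6 mean normalized counts. Other genes lower by 0.5 or more on the log2 scale were the β-catenin coactivator *BCL9L* (-0.52, SE 0.068) and the target genes *TNFRSF19* (-0.81, SE 0.053), *SNAI2* (-0.79, SE 0.31) and *JUN* (-0.71, SE 0.13). *JUN* is also induced by many other signals. These are a selection by size of change. Of all 10 target genes tested at 24 h, 1 was called higher and 4 lower, with a median log2 fold change of 0.004. Of 12 nuclear cofactors 3 were higher and 2 lower. Over all tested genes 16.7% were higher and 12.8% lower.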

How the data were processed

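Bulk RNA sequencing covered 18 samples, 3 on LN411 and 3 on FN at each of 3, 6 and 24 h, grouped by their GEO labels. Per the paper and the submitters' processing notes, the authors aligned reads with STAR 2.7.2d to GRCh38 with GENCODE v32, took gene counts from STAR and contrasted both matrices at each time with DESeq2 1.34.0. The deposited table holds, per gene and time, the mean normalized count, a signal the authors averaged over samples after scaling by size factors. It also holds the log2 fold change and standard error from the authors' fit, the Wald score (the authors' ratio of both), and the authors' p-value and Benjamini-Hochberg adjusted p-value after filtering on the mean count. Values per sample were not used here, so library depth is unknown, and p-values measure the spread between samples whose origin in separate cultures the labels do not give. The paper calls the 3 samples per group biological replicates.

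From the log2 fold changes and standard errors, two-sided Wald p-values were recomputed and adjusted with the filter kept (lowest mean normalized count tested 17.1, 108 and 2.70 at 3, 6 and 24 h). No recomputed value was further than 9.72e-06 from the deposited adjusted p-value. Effects at different times were compared with a z test that treats the times as independent. Levels were divided by the exonic length in GENCODE v44, which also gave positions on GRCh38. Promoters were those of RefSeq. Every gene of the symbol rule was accounted for, with values for those called at any time and for those with at least 1000 mean normalized counts or an unadjusted p under 0.05. Other pathway genes were named if called and changed by at least 0.5, with *CTNNB1*, *APC*, *GSK3B*, *PORCN* and *WLS* named whatever their values. The genes, lists and markers were chosen with earlier results of these data known.

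The procedure was run on simulated data. For 18975 genes drawn with their own standard errors, 160 of 200 genes changed by 1 on the log2 scale were called, with 7 unchanged genes. The test between 6 and 24 h found 141, with 16 unchanged genes. The draws used the normal errors and independent times that the tests themselves assume. They therefore cannot show whether standard errors from 3 samples per group suit a normal distribution, or whether times share batches. Alternatives were an adjusted p under 0.01, no filter, 1 filter for all times, a t distribution with 12 degrees of freedom, a limit of 0.5 on the log2 fold change and removal of trends with GC content and transcript length. The tools were scipy 1.17.1, pandas 2.3.3 and numpy 2.4.6 under Python 3.11.15.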

Additional observations from a re-analysis of the deposited data

Results flagged for a closer look

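Wnt genes whose LN411 effect differed between times in the z test are given by the later log2 fold change minus the earlier one. From 6 to 24 h the differences were 1.58 for *WNT8B*, 0.80 for *WNT5A*, 0.77 for *FZD9*, 0.38 for *FZD3*, 0.36 for *FZD1*, 0.36 for *ROR1*, 0.27 for *FZD7* and 0.24 for *SFRP5*. In the other direction they were -1.22 for *LEF1*, -0.82 for *FZD8*, -0.62 for *WNT4*, -0.51 for *FZD5*, -0.33 for *FZD2* and -0.31 for *FZD4*. *FZD7* was called lower at 6 h and not called at 24 h, whereas the other upward differences were those of genes called higher at 24 h.

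From 3 to 24 h, which shares its 24 h samples with the former comparison, the upward differences were 1.70 for *WNT8B*, 0.95 for *WNT5A*, 0.87 for *FZD9*, 0.49 for *FZD1*, 0.42 for *ROR1*, 0.36 for *FZD3*, 0.34 for *TCF7L2*, 0.34 for *SFRP5*, 0.23 for *FZD7* and 0.22 for *ROR2*. Downward differences were -1.04 for *LEF1*, -0.91 for *FZD8*, -0.76 for *FZD5*, -0.68 for *WNT5B*, -0.53 for *WNT4*, -0.28 for *FZD2* and -0.22 for *FZD4*. *ROR2*, *TCF7L2* and *WNT5B* differed from 3 h but were not called against 6 h. With a t distribution the difference of *LEF1* from 6 to 24 h was lost, and those of *LEF1*, *FZD2*, *ROR2*, *WNT4* and *WNT5B* from 3 to 24 h. Any differentiation batch that samples of different times shared was left out of these tests.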

How the results depend on the processing

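No called Wnt gene changed direction under any alternative run. At an adjusted p under 0.01 there were 43 calls over all genes at 3 h, 577 at 6 h, and 16 Wnt genes at 24 h, of which 3 were ligands, 2 antagonists and 0 R-spondins or LGR receptors, while other pathway genes had 1 call at 6 h and 19 at 24 h. With a t distribution with 12 degrees of freedom, all genes had 8 calls at 3 h, 338 at 6 h and 4409 at 24 h. Wnt genes had 3 at 6 h and 16 at 24 h (ligands 3, antagonists 2, R-spondins and LGR receptors 0), and other pathway genes had 1 and 19. Differences between times over all genes numbered 0 from 3 to 6 h, 1394 from 6 to 24 h and 1969 from 3 to 24 h. Wnt differences from 6 to 24 h and from 3 to 24 h numbered 13 and 12 in place of 14 and 17. Both settings lost the same 10 calls at 24 h, those of *LRP5*, *LRP6*, *WNT5B*, *WNT9A*, *WNT10B*, *RSPO3*, *RSPO4*, *SFRP1*, *DKK3* and *FZD6*. A limit of 0.5 on the log2 fold change left 0, 1 and 11 Wnt genes at 3, 6 and 24 h, and 3, 50 and 1698 of all genes, where the balance turned, with 38% higher at 6 h instead of 59.5% and 47.6% at 24 h instead of 56.5%. With 1 filter at all times, 38 higher and 37 lower genes at 3 h replaced 32 and 35. At 6 h *DKK1* was also lost at 0.01, without a filter and with the t distribution, and *SFRP5* with the t distribution and with trends removed. With 1 filter at all times 22 of the 26 calls at 24 h were tested and 0 lost.

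No paired analysis was possible because the table used here holds no values per sample, and for the same reason the fits without single replicates and other normalizations were not run, so it is unknown whether 1 sample decides a value, as for *DKK1* with its large standard error. Precision falls with level, and at 24 h the interval of *WNT3*, with 19.7 mean normalized counts, ran from -1.12 to 0.47.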
